A study of Rattus norvegicus with 12 samples.

Results

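Macrophages are myeloid cells that clear debris and shape the tissue they live in, and in the mammary gland they gather around the terminal end buds and ducts while the ductal tree grows out during puberty. They depend on colony stimulating factor 1, the product of Csf1, which acts through the receptor tyrosine kinase encoded by Csf1r. The 10 genes described here were taken as named genes of this cell type: the ligand Csf1, its receptor Csf1r, and Cd68, Cd163, Mrc1, Itgam, Aif1, Cd14, Lyz2 and Tyrobp, which encode lysosomal, surface, cytoplasmic and signalling proteins of macrophages. All 10 were found by symbol among 26456 gene names on the array, by 13 probes of 60 bases. All 10 were among the 20199 names tested. Counted as genes here, some of these names are only the identifier of a probe or transcript. Each of the 13 probes was well above background on 12 of 12 arrays and 0 spots were saturated.

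The arrays measured total RNA of the lumbar mammary gland (the conjoined pair of fat pads in the groin) of female Wistar rats, 1 rat per array and 3 rats in each of 4 groups. The mothers of NP rats ate a normal protein diet with 17.0% protein throughout pregnancy, and the mothers of LP rats a low protein diet with 8.8%, which restricts growth in the womb. Litters were cut to 6 females and suckled for 21 days by mothers on standard chow, to which the young were then weaned. Glands were taken at day 21 (NP rats 4a, 5a and 6a, LP rats 4a, 6a and 7c) or at day 28 (NP rats 4f, 5f and 6f, LP rats 4f, 6f and 7f), at the start and the end of ductal outgrowth, after visible lymph nodes had been cut away. The labels do not say whether the rats of a group came from separate litters. All arrays of day 21 were on slide 1 and all of day 28 on slide 2, and the effects of slide and day therefore cannot be told apart. Values are log2 signals relative to the 75th percentile of the array. A level is therefore comparable between arrays for 1 gene and not between genes.

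Among the 12 arrays, LP rat 6a of day 21 stood apart, with a median correlation of 0.9598 with the other arrays, against 0.9738 to 0.9887 for the rest. Next to it was NP rat 4f of day 28 at 0.9738, which had the lowest array quality weight (0.27, with 0.392 for LP rat 6a, and a highest of 1.70). On LP rat 6a, markers of lymphocytes were far below those of the other 5 arrays of day 21. The mean of 10 T cell genes was lower there by a log2 difference of -5.91 and that of 8 B cell genes by -5.50. It was the lowest of the 12 arrays for 10 of 10 T cell genes and 8 of 8 B cell genes, of which 7 and 4 were still well above background on it. The mean of 5 genes of lymph node stroma differed by -3.80 and that of 4 genes of all leukocytes by -3.06, whereas 8 genes of luminal epithelium differed by 1.41, 7 of basal epithelium by 1.19 and 8 of skeletal muscle by 3.60. The mean of the 10 macrophage genes was 0.44 on this array and 1.13 to 1.34 on the other 5 of day 21. Comparisons are given with and without it. In RNA of whole glands, fewer macrophages and less RNA of these genes per macrophage cannot be told apart.

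**Figure D1:**
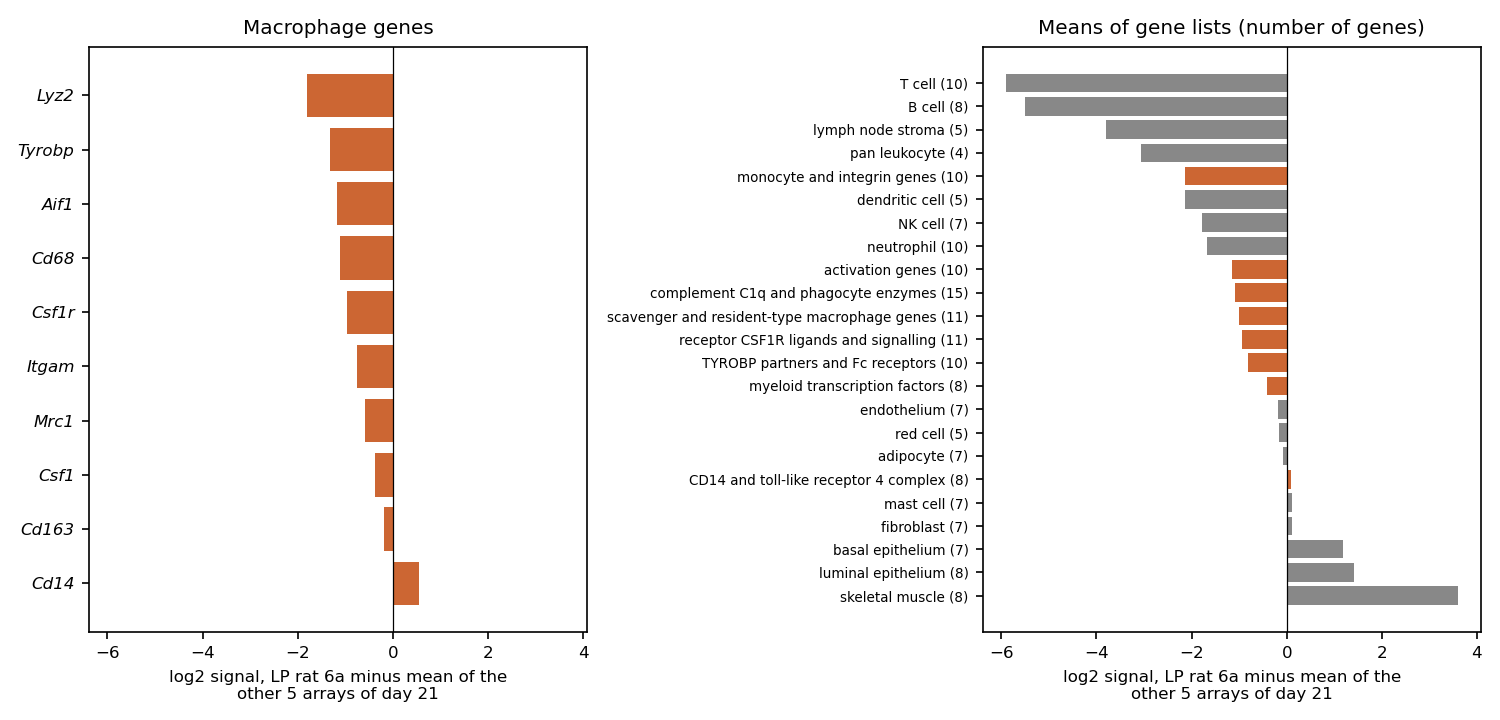
LP rat 6a of day 21 against the other 5 arrays of that day. Bars give the log2 signal on that array minus the mean of the others, on the left for each macrophage gene and on the right for the mean of each gene list (orange, macrophage lists; grey, markers of other cells). Lyz2 had the lowest value of the 10 genes at -1.80, and Cd14 was the gene above 0, at 0.54, while the T cell list lay at -5.91.

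The ligand Csf1 was read by a probe at chr2:203292994-203293053 of the rn4 build. In NP rats of day 21 its log2 level was 0.20, 0.16 and 0.18, and in LP rats -0.09, -0.22 and 0.31. The LP values of that day lay on both sides of the 3 NP values. At day 28 the level was 0.15, 0.24 and 0.19 in NP rats against -0.05, -0.05 and 0.03 in LP rats. At day 28 the groups did not overlap, which held for 1 of the 10 genes, Csf1, and for 16.8% of all genes. The log2 difference between LP and NP was -0.22 at day 28 (95% interval -0.50 to 0.06, unadjusted p = 0.11, limma adjusted p = 0.58), a level 1.16-fold higher in NP, and -0.18 at day 21 (SE 0.12).

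For the receptor, Csf1r, the brighter probe spans chr18:57105231-57105932, which is 702 bases of the genome for 60 bases of probe. Its level was -0.01, 0.13 and 0.37 in NP rats of day 21, and 0.03, -0.86 and -0.01 in LP rats. At day 28 it was -0.09, 0.13 and -0.48 in NP rats and -0.38, -0.14 and -0.09 in LP rats. The LP rats overlapped the NP rats on both days, and the value of LP rat 6a was below all others. The log2 difference at day 21 was -0.44 (SE 0.24, adjusted p = 0.86), and without LP rat 6a it was -0.15 (SE 0.19). A second probe of Csf1r at chr18:57093036-57093095 gave -0.52 at day 21 (unadjusted p = 0.044, adjusted p = 0.86) and -0.24 without LP rat 6a, and -0.36 at day 28.

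Lyz2 encodes lysozyme, which breaks bacterial cell walls and is made in large amounts by macrophages and other myeloid cells. Its log2 level (probe at chr7:56607738-56607797) was 5.78, 5.67 and 5.46 in NP rats of day 21 and 5.55, 3.83 and 5.66 in LP rats. At day 28 it was 5.90, 6.32 and 5.94 in NP rats and 5.74, 5.99 and 6.04 in LP rats. LP rat 6a was 1.63 below the next lowest array and 3.47-fold below the mean of the other arrays of its day, the widest gap among the 10 genes. The other 11 arrays lay between 5.46 and 6.32.

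Cd68 encodes a glycoprotein of lysosomes and endosomes. Its level (chr10:56481726-56481785) was 1.27, 1.26 and 0.92 in NP rats of day 21, 1.06, 0.06 and 1.31 in LP rats of day 21, 1.35, 1.71 and 1.30 in NP rats of day 28, and 1.49, 1.19 and 2.06 in LP rats of day 28. The lowest value was again that of LP rat 6a, and the highest that of LP rat 7f.

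Aif1 encodes IBA1, a calcium-binding protein of the macrophage cytoskeleton. Its brighter probe (chr20:3716264-3716323) read 2.95, 3.09 and 2.73 in NP rats of day 21 and 2.84, 1.76 and 3.04 in LP rats, then 3.06, 3.70 and 3.42 in NP rats of day 28 and 3.32, 3.39 and 3.47 in LP rats. Of the 6 arrays of day 28, 5 lay above all 6 of day 21, and NP rat 4f was the exception. The second probe, at chr20:3716146-3716205, read 2.53 on NP rat 4f of day 28 and 2.81 to 3.16 on the other arrays of that day, against 1.59 on LP rat 6a and 2.50 to 2.82 on the others of day 21.

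Tyrobp encodes DAP12, a membrane adaptor that passes signals of TREM2 and related receptors. Its level (chr1:85369110-85369169) was 3.63, 3.41 and 3.00 in NP rats of day 21, 3.1, 2.0 and 3.46 in LP rats of day 21, 3.53, 3.71 and 3.29 in NP rats of day 28, and 3.34, 3.57 and 3.53 in LP rats of day 28. With LP rat 6a set aside, the 4 groups shared much of their range.

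The other 4 genes encode receptors at the cell surface. Cd163 encodes the scavenger receptor for haptoglobin and haemoglobin. Its level (chr4:160423704-160423763) was -0.02, 0.36 and 0.78 in NP rats of day 21 and 0.41, 0.26 and 0.71 in LP rats, and at day 28 -0.08, 0.04 and 0.15 in NP rats and 0.13, 0.54 and 1.32 in LP rats. The groups of day 28 overlapped by 1 value on each side, and LP rat 7f was the highest of all arrays. LP rat 6a ranked 6 of 12 from the lowest.

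Mrc1 encodes the mannose receptor of resident-type macrophages. Its level (chr17:88489156-88491763, a span of 2608 bases) was -2.56, -2.32 and -2.37 in NP rats of day 21, -2.65, -2.99 and -2.08 in LP rats of day 21, -2.39, -2.49 and -2.30 in NP rats of day 28 and -2.64, -2.18 and -2.08 in LP rats of day 28. The LP values enclosed the NP values on both days.

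Itgam encodes CD11b, the alpha chain of complement receptor 3. Its brighter probe (chr1:187385524-187385583) read -1.06, -0.44 and -0.98 in NP rats of day 21, -0.49, -1.45 and -0.48 in LP rats of day 21, -1.36, -0.79 and -0.94 in NP rats of day 28, and -0.59, -0.98 and -0.40 in LP rats of day 28. LP rat 6a was lowest and NP rat 4f of day 28 second lowest, 0.08 above it. A second probe (chr1:187385032-187385565) gave a log2 difference between LP and NP of -0.09 at day 21 and 0.52 at day 28 (SE 0.31).

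Cd14 encodes the co-receptor that hands lipopolysaccharide to toll-like receptor 4. Its level (chr18:29374990-29375049) was 1.29, 1.61 and 1.34 in NP rats of day 21, 1.49, 1.98 and 1.44 in LP rats of day 21, 1.85, 1.38 and 1.44 in NP rats of day 28, and 1.83, 2.03 and 1.78 in LP rats of day 28. Here LP rat 6a was the second highest of the 12 arrays, and NP rat 4f the highest of its group. Thus LP rat 6a was the lowest array for 8 of the 10 genes, all but Cd163 and Cd14, where it was the lowest for 18.6% of all genes and the highest for 17.4%.

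**Figure D2:**
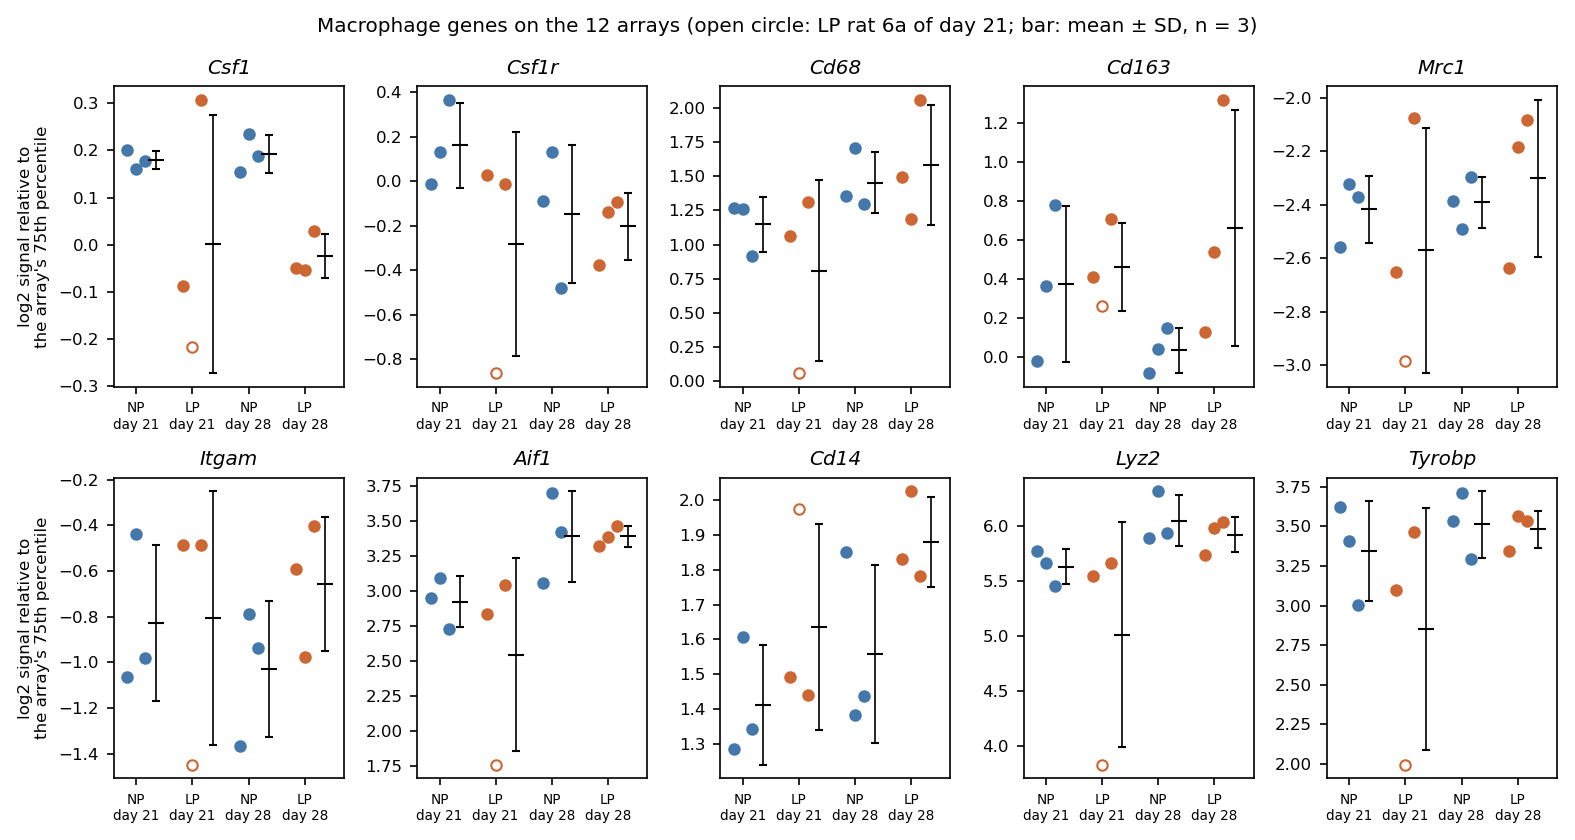
Log2 signal of the 10 macrophage genes relative to the array's 75th percentile, for NP (blue) and LP (orange) rats at day 21 and day 28. Each point is 1 rat, the open circle is LP rat 6a of day 21, and bars give the mean and SD of 3 rats; each panel has its own axis. The open circle is the lowest point in 8 of 10 panels.

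Transcription of many myeloid genes starts from promoters bound by PU.1, whose site holds the letters GAGGAA. RefSeq promoter windows (GRCr8, 250 bases before to 50 after the start of the gene) were held for 7 of the 10 genes, namely Csf1r, Cd68, Cd163, Mrc1, Itgam, Cd14 and Lyz2, and not for Csf1, Aif1 and Tyrobp. Of these, 4 are shown, in the direction of the gene, to set different genes side by side. Lyz2 was the gene that on LP rat 6a lay furthest below the other arrays of its day. Cd68 was a gene with a higher mean at day 28, Itgam a gene low on both arrays that stood apart, and Cd163 one that was not low on LP rat 6a. Capitals mark GAGGAA or its reverse complement TTCCTC. The windows lie at chr7:54797962-54798261 on the minus strand, chr10:54882392-54882691 on the minus strand, chr1:192089342-192089641 on the plus strand and chr4:158770524-158770823 on the plus strand.
Lyz2: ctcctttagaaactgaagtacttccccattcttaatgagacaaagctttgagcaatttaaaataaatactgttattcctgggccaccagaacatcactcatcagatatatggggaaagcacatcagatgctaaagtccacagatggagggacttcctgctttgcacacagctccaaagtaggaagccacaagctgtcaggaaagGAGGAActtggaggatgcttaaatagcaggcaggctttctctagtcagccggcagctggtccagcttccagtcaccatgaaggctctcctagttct
Cd68: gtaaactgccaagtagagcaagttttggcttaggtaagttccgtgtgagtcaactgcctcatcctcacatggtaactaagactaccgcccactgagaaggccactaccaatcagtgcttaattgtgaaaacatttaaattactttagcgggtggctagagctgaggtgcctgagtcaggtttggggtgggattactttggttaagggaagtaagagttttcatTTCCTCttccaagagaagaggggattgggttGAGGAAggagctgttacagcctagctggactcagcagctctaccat
Itgam: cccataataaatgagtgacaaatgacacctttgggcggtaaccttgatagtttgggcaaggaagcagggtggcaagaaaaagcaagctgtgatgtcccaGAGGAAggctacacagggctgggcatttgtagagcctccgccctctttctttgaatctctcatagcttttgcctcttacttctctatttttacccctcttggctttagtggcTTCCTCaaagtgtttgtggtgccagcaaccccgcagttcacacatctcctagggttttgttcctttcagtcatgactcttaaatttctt
Cd163: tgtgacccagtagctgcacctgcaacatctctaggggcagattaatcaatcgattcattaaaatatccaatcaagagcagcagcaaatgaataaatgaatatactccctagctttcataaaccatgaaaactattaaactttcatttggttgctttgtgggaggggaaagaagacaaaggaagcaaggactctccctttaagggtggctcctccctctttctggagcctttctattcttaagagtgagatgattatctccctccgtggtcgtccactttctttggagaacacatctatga

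The letters occurred 1 time in the window of Lyz2, 2 times in those of Cd68, Itgam, Csf1r, Mrc1 and Cd14, and 0 times in that of Cd163. They were found on either strand in 6 of the 7 windows, against 27.6% of 33469 windows of the same length, and 2 or more times in 5 of the 7, against 4.83%. Cd14, which was not low on LP rat 6a, held 2 copies, as did Cd68, which was. The match is of letters only and was not tested.

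The first comparison asked whether macrophage genes differed between LP and NP rats at the start of ductal outgrowth. At day 21 the median log2 difference of the 10 genes was -0.26, with 7 lower and 3 higher in LP rats, and the median of all genes was 0.01. None of the 10 passed an adjusted p of 0.05, as was the case for 0% of all genes, and 0 had an unadjusted p below 0.05, against 4.34% of all genes. The groups did not overlap for 0 of the 10, against 11.6% of all genes. The lowest differences were those of Lyz2 (-0.62, SE 0.40), Tyrobp (-0.49, SE 0.32), Csf1r (-0.44, SE 0.24), Aif1 (-0.38, SE 0.30) and Cd68 (-0.34, SE 0.32), and the highest that of Cd14 (0.22, SE 0.18).

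These differences of day 21 rested on 1 rat. Without LP rat 6a the median of the 10 genes was 0.03, with 6 higher and 4 lower. Lyz2 then differed by -0.03 (95% interval -0.40 to 0.34), Tyrobp by -0.06, Aif1 by 0.01 and Cd68 by 0.04, and Itgam by 0.34 (SE 0.24). Again 0 of the 10 were below an unadjusted p of 0.05 (2.03% of all genes) and 0 below an adjusted one (0% of all genes). With LP rat 7c left out in its place, 3 of the 10, Csf1, Lyz2 and Tyrobp, had an unadjusted p below 0.05 (8.71% of all genes in that fit), and without LP rat 4a 1 had, Csf1r (8.43% of all genes). With LP rat 6a in the fit, the interval of the difference ran from -1.51 to 0.27 for Lyz2 and from -0.46 to 0.10 for Csf1.

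**Figure D3:**
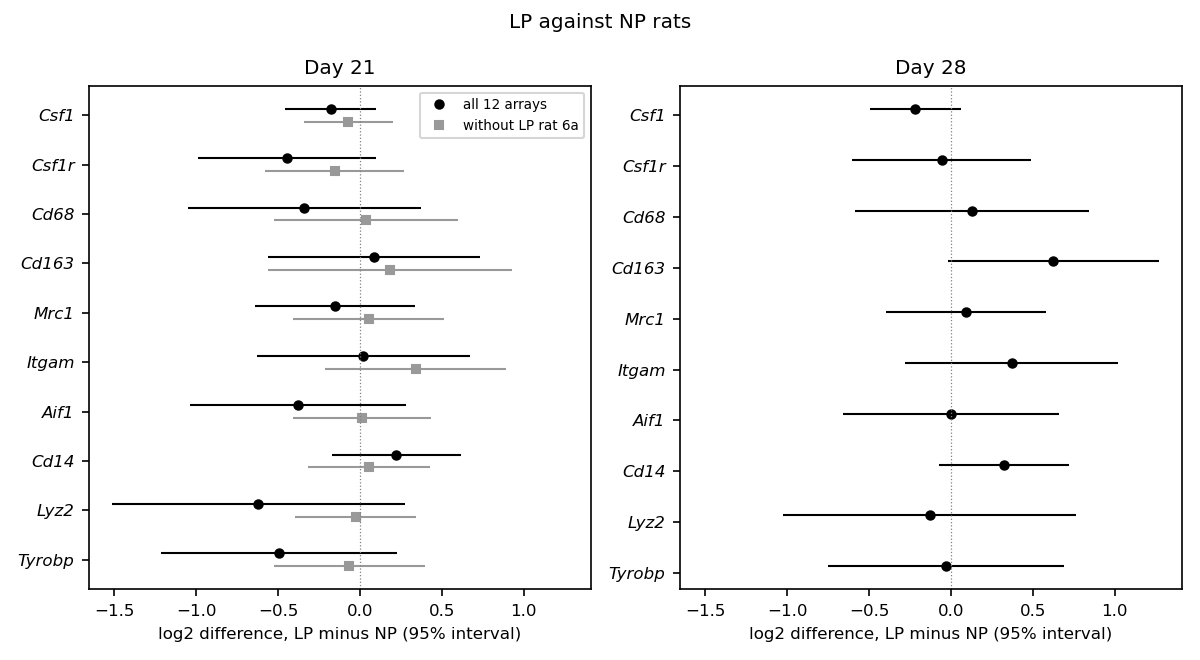
Log2 difference of each macrophage gene between LP and NP rats at day 21 (left) and day 28 (right), with 95% intervals from limma; grey squares leave out LP rat 6a of day 21. All intervals include 0, and at day 21 Lyz2 moved from -0.62 to -0.03 without that rat.

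At day 28, the end of ductal outgrowth, the median log2 difference of the 10 genes was 0.05, with 5 higher and 5 lower in LP rats, against -0.05 over all genes. An unadjusted p below 0.05 was found for 0 of the 10 genes and for 7.95% of all genes, and an adjusted one for 0 of the 10 and 0% of all genes. The scavenger receptor Cd163 had the highest difference, 0.63 (95% interval -0.02 to 1.27, unadjusted p = 0.056, adjusted p = 0.58). Without LP rat 7f, which had the highest level of Cd163, its difference was 0.30 (unadjusted p = 0.24), and leaving out any 1 array gave 0.30 to 0.89. It was followed by Itgam at 0.37 (SE 0.29, 0.21 to 0.53 leaving out 1 array, the lowest without NP rat 4f) and Cd14 at 0.32 (SE 0.18), the mean of Cd14 being 1.88 ± 0.13 (SD, n = 3) in LP rats and 1.56 ± 0.26 in NP rats. Aif1, Tyrobp and Csf1r differed by 0.00, -0.03 and -0.06. Leaving out 1 of the 12 arrays at a time, 0 or 1 of the 10 had an unadjusted p below 0.05, against 3.74% to 14.8% of all genes in the same fits. The 1 gene was Cd14 without NP rat 4f of day 28, Cd163 without LP rat 4f of day 28 or NP rat 4a or 6a of day 21, and Csf1 without LP rat 7c.

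Markers of other cells were also read at day 28, where 42.6% of all genes had a higher mean in LP rats. The mean was lower in LP rats for 10 of 10 T cell genes, 8 of 8 B cell genes and 4 of 4 genes of all leukocytes, with median differences of -0.58, -0.61 and -0.54, and higher for 8 of 8 genes of luminal epithelium, with a median of 0.58. The T cell mean ranged from 0.58 to 1.05 in NP rats and from -0.09 to 0.46 in LP rats. Of these genes 0 passed an adjusted p of 0.05 by limma and 0 an unadjusted one, whereas without LP rat 6a of day 21 it was 9 of 10, 4 of 8, 4 of 4 and 1 of 8 at an unadjusted p below 0.05 and 0 at an adjusted one. In that fit it was 11.0% of all genes and 0 of the 10 macrophage genes, by the brighter probe, at an unadjusted p, and 0% of all genes at an adjusted one. The second probes of Csf1r (-0.36, unadjusted p = 0.035) and Itgam (0.52, unadjusted p = 0.034) were below 0.05 there. Their limma adjusted p was 0.44. The part of the other cells in the values of the macrophage genes was not tested.

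Between day 21 and day 28, over both diets, 6 of the 10 genes had a higher mean at day 28 and 4 a lower one. Lyz2 differed by 0.66 (95% interval 0.03 to 1.30, 1.58-fold, unadjusted p = 0.041), Aif1 by 0.66 (0.19 to 1.12, 1.57-fold, unadjusted p = 0.011) and Cd68 by 0.54 (0.04 to 1.04, 1.45-fold, unadjusted p = 0.038), and their limma adjusted p values were 0.24, 0.14 and 0.23. So 3 of the 10 genes had an unadjusted p below 0.05, all 3 higher at day 28, against 19.0% of all genes in either direction and 10.4% higher at day 28. With adjustment it was 0 of the 10, against 1.84% of all genes. The arrays of the days did not overlap for 0 of the 10, against 3.63% of all genes. Tyrobp differed by 0.40 (SE 0.23), Cd14 by 0.19 (SE 0.13) and Mrc1 by 0.15 (SE 0.15), and Csf1, Itgam, Cd163 and Csf1r by -0.01, -0.03, -0.07 and -0.11. The median of the 10 was 0.17, against 0.02 over all genes.

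The size of these differences depended on LP rat 6a. In NP rats, which do not include it, Aif1 differed by 0.47, Lyz2 by 0.42 and Cd68 by 0.30, with unadjusted p values of 0.15, 0.32 and 0.36, and in LP rats by 0.84, 0.91 and 0.77. Without LP rat 6a, Aif1 differed by 0.46 over both diets (unadjusted p = 0.0050, adjusted p = 0.14), Lyz2 by 0.37 (unadjusted p = 0.0084), Cd14 by 0.28 (unadjusted p = 0.033) and Cd68 by 0.35 (unadjusted p = 0.064), so that again 3 of 10 were below 0.05 (16.0% of all genes) and 0 after adjustment (0.683% of all genes). Aif1 kept an unadjusted p below 0.05 when any 1 of the 12 arrays was left out, between 0.0034 and 0.028, whereas Lyz2 did so in 3 and Cd68 in 4 of the 12. The second probe of Aif1 gave 0.41 with all arrays (unadjusted p = 0.056 by limma) and 0.24 without LP rat 6a (unadjusted p = 0.083). In NP rats it gave 0.12 (unadjusted p = 0.66).

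Markers of other cells were also compared between the days. All 5 red cell genes had an unadjusted p below 0.05 and were lower at day 28 (median -0.95), 3 of them at an adjusted p below 0.05, and 2 without LP rat 6a. Among these 5, Epb42 was well above background on only 3 arrays, and the other red cell genes on every array. Its level lay between -7.04 and -5.82 at day 21 and between -8.92 and -7.62 at day 28. The difference of Epb42 was thus one near background, and its size cannot be read. Of 7 genes of endothelium 4 were lower at an unadjusted p below 0.05, and 1 of them at an adjusted one. Of all genes it was 19.0% in either direction at an unadjusted p. Without LP rat 6a 4 of the 7 had an unadjusted p below 0.05 (16.0% of all genes) and 0 an adjusted one, with a median of -0.33. For 7 NK cell genes the mean was higher at day 28 for 7 of 7, with a median of 0.83, 3 at an unadjusted p below 0.05 and 0 at an adjusted one. Without LP rat 6a it was higher for 7 of 7, with a median of 0.50 and 1 at an unadjusted p. Leaving out 1 array at a time, 0 to 4 of the 7 had an unadjusted p below 0.05, against 14.6% to 20.9% of all genes. The count was 0 without NP rat 4a, 5a or 6a of day 21, or NP rat 4f or 5f of day 28. The mean was higher at day 28 for 10 of 10 T cell genes with all arrays (median 0.96) and for 5 of 10 without LP rat 6a (median 0.00), and with all arrays 0 of the 10 had an unadjusted p below 0.05 by limma. Their part in the values of the macrophage genes was not tested.

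**Figure D4:**
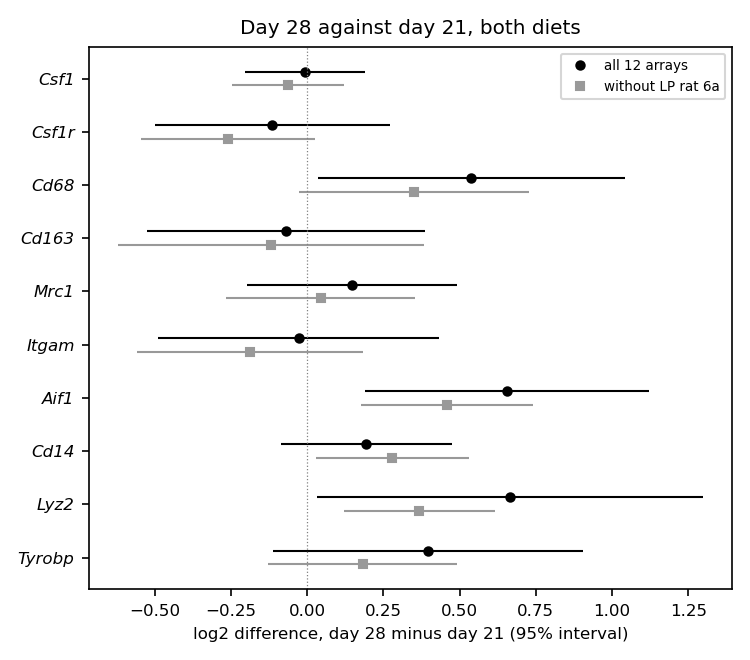
Log2 difference of each macrophage gene between day 28 and day 21 over both diets, with 95% intervals from limma, on all 12 arrays (black) and without LP rat 6a of day 21 (grey squares). The intervals of Cd68, Aif1 and Lyz2 lie above 0 on all arrays, and those of Aif1, Cd14 and Lyz2 without that rat.

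The difference between LP and NP rats was also compared between the days. It was higher at day 28 for 9 of the 10 genes, all but Csf1, with a median of 0.38 against -0.04 over all genes. The change had an unadjusted p below 0.05 for 0 of the 10 genes (2.27% of all genes) and an adjusted p below 0.05 for 0 (0% of all genes). The highest was that of Cd163 (0.54, SE 0.41), and Lyz2 had 0.49 (SE 0.57). Without LP rat 6a the median was 0.03, with 7 higher and 3 lower, and Lyz2 had -0.10.

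Other genes of the same pathways were read from 8 lists of receptors, ligands, enzymes and factors of macrophages, in which 83 of 97 listed symbols were tested. Of these, 74 stood well above background on each of the 12 arrays. At day 21, 65 of the 83 were lower and 18 higher in LP rats, with a median of -0.25, and at day 28, 40 were lower and 43 higher, with a median of 0.01. Neither comparison had a gene with an adjusted p below 0.05, and 7 of the 83 at day 21 (4.34% of all genes) and 2 at day 28 (7.95% of all genes) had an unadjusted one. These counts were taken again with each array left out, a setting chosen after seeing the data. At day 21 the count depended on arrays of both diets. Without NP rat 4a it was 1 lower and 1 higher in LP rats (2.86% of all genes in either direction). It was 1 lower and 2 higher without NP rat 6a (2.59%), and 3 lower and 1 higher without NP rat 5a (5.76%). Without LP rat 6a it was 1 lower and 1 higher in LP rats (2.03% of all genes in either direction). It was 22 lower and 3 higher without LP rat 7c (8.71%), and 23 lower and 1 higher without LP rat 4a (8.43%). By direction alone, 62 of the 83 were still lower and 21 higher without LP rat 6a, with a median of -0.09. In that fit 53.1% of all genes were higher in LP rats. At day 28 the count was 14 lower and 0 higher without LP rat 6a of day 21 (8.70% of all genes lower). It was 2 lower and 8 higher without LP rat 4f of day 28 (7.09% of all genes in either direction). The kinase Syk (-0.99), the adaptor Dok2 (-0.78) and the phosphatase Inpp5d (-0.87), from the list of Csf1r signalling, were among the 7 of day 21, and without LP rat 6a they were -0.46, -0.33 and -0.30. The arginase gene Arg1, which many other cells express too, was the 1 of the 7 with a higher mean in LP rats (1.12, SE 0.34, adjusted p = 0.86), and it kept 0.91 without LP rat 6a. Il34, the other ligand of the receptor, differed by 0.15 at day 28 (SE 0.15).

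Between the days, 72 of the 83 had a higher mean at day 28, and the median was 0.31. Of these 72, 19 had an unadjusted p below 0.05 and 0 an adjusted one. Of all genes, 10.4% were higher at day 28 at an unadjusted p below 0.05. Arg1 was lower at that unadjusted level (-0.79). In the list of TYROBP partners, Fc receptors and related surface proteins, 10 of 10 genes had a higher mean at day 28, with a median of 0.50. There the Fc receptor gene Fcgr3a, which NK cells express too, differed by 1.79 (SE 0.42, adjusted p = 0.068) and the Fc receptor gamma chain, Fcer1g, by 0.54 (SE 0.18, adjusted p = 0.16). The level of Fcgr3a was highest on LP rat 7f of day 28 (-0.96). So were those of the NK cell genes Gzma (0.62), Nkg7 (0.57), Prf1 (0.50) and Klrb1a (-3.29). Those of the NK cell genes Klrd1 (-2.97), Klrk1 (-1.05) and Ncr1 (-5.79) were not highest there. Also highest on LP rat 7f were 3 of the 10 macrophage genes, Cd68, Cd163 and Itgam, where 6.85% of all genes were highest. The mean of the list that holds Fcgr3a was 0.24 on LP rat 7f and -1.71 to -0.44 on the other arrays. The levels on LP rat 7f were looked at after the values were seen. Which cells gave them was not tested. Without that rat Fcgr3a differed by 1.47 (limma adjusted p = 0.091), and without LP rat 6f of day 28, the one array whose removal brought its adjusted p below 0.05, by 2.08 (adjusted p = 0.040). In the list of complement C1q and phagocyte enzymes 14 of 15 had a higher mean at day 28. There C1qb differed by 0.41 (SE 0.15) and the oxidase subunit Cybb by 0.54 (SE 0.18). Tlr4, the receptor that Cd14 serves, differed by 0.40 (SE 0.13). Without LP rat 6a the median of the 83 was 0.17, with 65 higher. At an unadjusted p below 0.05, 13 of the 83 were then higher and 1 lower at day 28 (16.0% of all genes in either direction). With other arrays left out, the count higher was lowest at 9, without NP rat 5f of day 28 (17.0% of all genes in either direction). It was 10 without LP rat 7f of day 28 (17.1%) or NP rat 6a of day 21 (14.6%). It was highest at 25, without LP rat 4a (17.7%) or LP rat 7c (19.1%) of day 21. In each of these fits 1 gene was lower. Without LP rat 6a Fcgr3a stayed at 1.80.

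**Figure D5:**
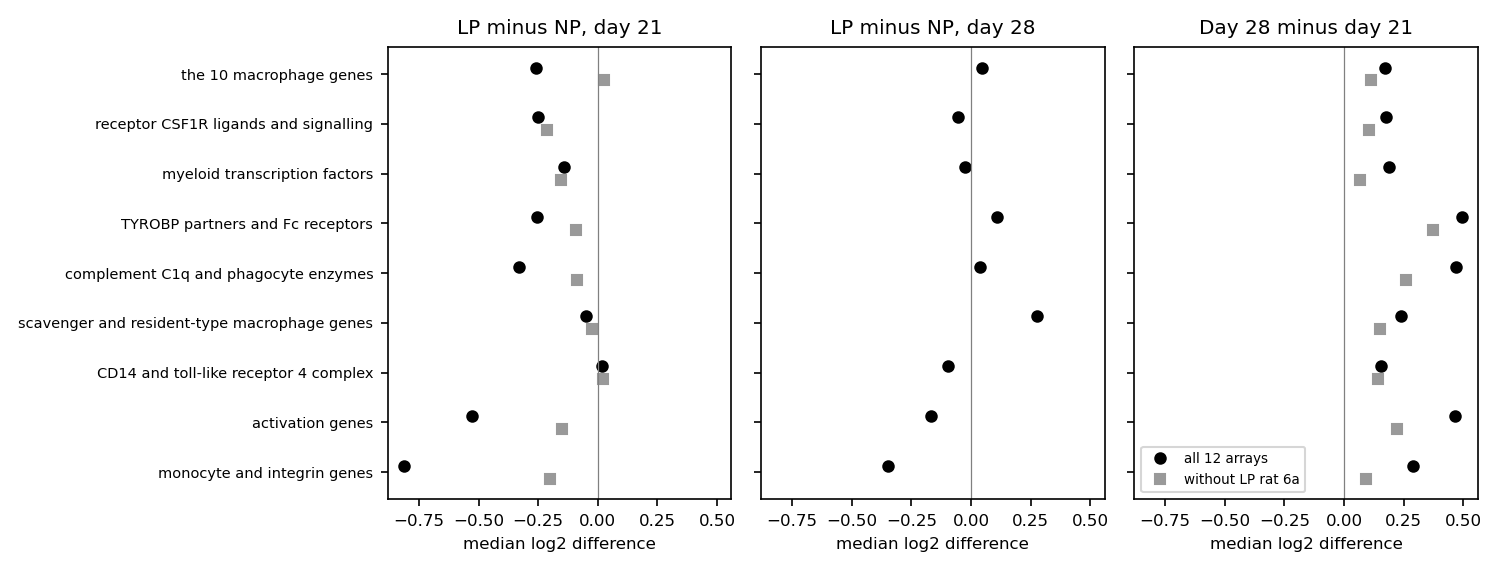
Median log2 difference of the 10 macrophage genes and of 8 lists of related genes, for LP against NP at each day and for day 28 against day 21, on all 12 arrays (black) and without LP rat 6a of day 21 (grey). For day 28 against day 21 every list median lies above 0, from 0.15 to 0.50 on all arrays.

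Across the 12 arrays the 10 genes did not vary as 1 block. The correlation of each gene with the mean of the others was 0.90 for Cd68, 0.87 for Lyz2, 0.87 for Aif1, 0.85 for Tyrobp and 0.78 for Mrc1, and 0.22 for Cd163 and -0.29 for Cd14. Without LP rat 6a it was 0.72 for Cd68, 0.54 for Aif1, 0.51 for Mrc1, 0.48 for Lyz2 and 0.39 for Tyrobp, and -0.23 for Csf1r. These are descriptions over 12 or 11 arrays that share 2 slides. Of 17409 other genes well above background on all arrays, the one most like the mean of the 9 genes other than Csf1 was C1qc, a chain of complement C1q, with r = 0.97 over 12 arrays and 0.97 over 11. Next over 12 arrays were Ms4a6b (0.96), Ms4a6a (0.96), Igsf6 (0.95) and the lysosomal protease Ctss (0.94), and over the 11 arrays Il12rb2 (0.92) and C1qb (0.91).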

How the data were processed

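Gene expression was measured on 1-colour (Cy3) Agilent rat arrays, 1 per rat. The authors read the scans with Agilent Feature Extraction and deposited its output, in which each spot has a processed intensity, background-subtracted and corrected within the array, together with a table of processed signals scaled by array. Its columns equal the scanner intensity times 1 factor per array (largest relative deviation 6.56e-05). The study called genes with Rosetta Resolver, which was not used here.

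Here control spots (4259) and outlier spots (259 to 766 per array) were left out, spots of a probe were averaged, and log2 intensity was taken relative to the 75th percentile of the array. The 23209 probes that stood well above background on 3 or more of the 12 arrays were fitted with limma 3.58.1 in R 4.3.3 (lmFit, contrasts.fit, eBayes; prior df 1.95), 1 mean per group, with data.table (version 1.17.8), and p values were adjusted by Benjamini-Hochberg over all of them. All tests were two-sided. The number of arrays limits the precision.

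A gene was represented by its probe with the highest mean signal, its other probes being given beside it. From each list the genes named were among the 4 with the lowest unadjusted p, or the ligand of the receptor. The genes most alike were ranked by Pearson r. The 10 genes, the lists and the tests were chosen with earlier results of these data known. On simulated data, 186 of 200 probes changed by 2 on the log2 scale between the days passed an adjusted p of 0.05, with 14 false calls, among 23209. That change was larger than any difference found for the 10 genes, and none was simulated between the diets. The simulation therefore does not give the power for differences of the size found here. The alternatives were other scaling, background, filters, variance models, weights, blocks, row on the slide, probe choice, and leaving out arrays.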

Additional observations from a re-analysis of the deposited data

How the results depend on the processing

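No macrophage gene reached an adjusted p of 0.05 in any of the 4 comparisons under any setting tried, the lowest being 0.056, for Aif1 between the days with both arrays that stand apart left out, a setting chosen after seeing the data. At day 21, the replicate number as a fixed block gave 1 gene with an unadjusted p under 0.05 (Cd68) and turned Cd163 to -0.14, as did the row on the slide (-0.21), and the mean over probes turned Itgam to -0.037. With both arrays out, the median became 0.0255, Cd68 0.037, Mrc1 0.053 and Aif1 0.014. At day 28, 1 gene had an unadjusted p under 0.05 with an intensity trend and robust estimation (Cd163), with array weights or both arrays out (Cd14) and with the replicate block (Csf1). Differences near 0 changed sign at day 28, Lyz2 to 0.017 under quantile normalization, Mrc1 to -0.0062 and Aif1 to 0.12 under normexp, Aif1 to 0.0091 with outlier spots kept and to 0.068 over its probes, Cd68 to -0.024 and Mrc1 to -0.088 under the block, and, with the row, Csf1r to 0.0115, Mrc1 to -0.12, Aif1 to 0.11, Lyz2 to 0.047 and Tyrobp to 0.023. Between the days, Csf1 turned to 0.0103 in the deposited table. The change of the diet difference had a median of 0.11 with array weights, and with both arrays out 0.041, 1 gene with an unadjusted p under 0.05 (Cd14), Itgam at -0.14, Aif1 at -0.18 and Lyz2 at -0.18. The cause of these moves was not tested.

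Leaving out 1 array at a time gave the following ranges. At day 21 the count of genes with an unadjusted p under 0.05 ran from 0 to 3 and the median from -0.49 to 0.0255, and Cd163 from -0.11 to 0.29, Itgam from -0.14 to 0.34, Cd68 from -0.59 to 0.037, Mrc1 from -0.40 to 0.053 and Aif1 from -0.63 to 0.014. At day 28 the count ran from 0 to 1, Csf1r from -0.22 to 0.082, Aif1 from -0.17 to 0.15, Lyz2 from -0.21 to 0.0036, Tyrobp from -0.14 to 0.068, Cd68 from -0.11 to 0.32 and Mrc1 from -0.018 to 0.26. Between the days the count ran from 1 to 4; it was 1 without NP rat 4a, 5a or 6a of day 21, or NP rat 4f or 5f or LP rat 4f or 7f of day 28, and Itgam ran from -0.19 to 0.070, Cd163 from -0.23 to 0.065 and Csf1 from -0.062 to 0.070. For the change of the diet difference the median ran from 0.035 to 0.57, Aif1 from -0.014 to 0.63, Lyz2 from -0.10 to 0.81 and Csf1 from -0.15 to 0.12. In these ranges the lowest or highest median at day 21 and of the change was the one without LP rat 6a or 7c.

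The replicate numbers were not treated as pairs. Deviations of LP and NP rats of the same number and day correlated at 0.088 to 0.13 over 4 pairs, 1 above 0.1, and those of the same diet and number at -0.058 to 0.38 over 6 pairs, 4 above 0.1. Under the fixed block 3 genes had an unadjusted p under 0.05 between the days, as without it. With diet and number as a random block the directions of all 10 genes were those of the fit without a block.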
